A study of Homo sapiens with 18 samples.

Results

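Enzymes that write, copy and erase DNA methylation, together with the polycomb enzyme complex, were followed through 3 sensitive and resistant pairs of ovarian cancer cell lines. The group holds 10 genes of the 12853 in the expression table, taken by gene symbol: the DNA methyltransferases DNMT1, DNMT3A and DNMT3B, the methylation reader UHRF1, the dioxygenases TET1, TET2 and TET3, and the polycomb core genes EZH2, EED and SUZ12. RNA depleted of ribosomal RNA was sequenced from 6 lines with 3 replicate libraries each, and each resistant line was compared with its sensitive partner. A2780, described in the labels as endometrial or ovarian cancer cells, is platinum-sensitive, and CP70 is its derivative made resistant to platinum in culture. PEA1 and PEA2 come from 1 patient with high-grade serous ovarian cancer, before platinum treatment and after relapse with resistant disease. PEO1 and PEO4 come from 1 patient with the same diagnosis. Both were isolated after platinum-based chemotherapy, PEO1 before and PEO4 after clinical resistance developed. All 6 lines were grown in the same medium, and the labels name no drug treatment of the cultures. Each condition of a pair is a single cell line, so the line and its resistance cannot be told apart within a pair. Nothing says that the 3 replicates of a line were separate cultures, so the p-values measure the spread between these libraries, which may be technical.

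DNMT3A and DNMT3B place methyl groups on unmethylated DNA, whereas DNMT1 copies the pattern to the new strand after replication, guided there by UHRF1, which recognises hemimethylated DNA. The TET enzymes oxidise methylcytosine, a first step in its removal. EZH2 is the catalytic subunit of polycomb repressive complex 2 (PRC2) and needs EED and SUZ12 to methylate histone tails at repressed genes, many of which have CpG-rich promoters.

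Values are log2 CPM as deposited, where CPM is a read count scaled to a common library size, so that a difference of 1 is a doubling. The libraries held between 1344098 and 7067336 reads on the listed genes, the fewest in PEA1 and the most in PEO1 replicate 3, and 3 reads corresponded to 0.452 to 2.18 CPM. Every one of the 10 genes had at least 6 reads in every library. The labelled cell type was checked with 9 epithelial markers. Of these, 8 were at 3 reads or fewer in every A2780 library, 5 in CP70, 2 in PEA1 and 0 in PEA2, PEO1 and PEO4. Their summed level was 2.24 to 3.13 CPM in A2780, 90.5 to 96.2 in CP70, 430 to 588 in PEA1, 4152 to 4412 in PEA2, 7498 to 8508 in PEO1 and 5883 to 7560 in PEO4. By limma, 3 of the 9 were higher and 0 lower in CP70, 7 higher and 0 lower in PEA2, and 2 higher and 1 lower in PEO4. The shares of all genes higher and lower were 22.2% and 17.7% in CP70, 32.5% and 29.4% in PEA2, and 19.6% and 21.9% in PEO4. PTPRC, the 1 blood cell marker of 9 in the table, was at 0 in PEA1 and between 46 and 70 reads in PEA2, and CDH5, the 1 endothelial marker of 5, was at 0 in PEA1 and between 66 and 88 reads in PEA2. Both were at 3 reads or fewer in every library of the other 4 lines. The 5 fibroblast markers of 7 in the table summed to 510 to 720 CPM in A2780, 869 to 1009 in CP70, 366 to 447 in PEA1, 3.45 to 6.40 in PEA2, 3.26 to 7.39 in PEO1 and 77.5 to 84.1 in PEO4. Of the 5, 1 was at 3 reads or fewer in every A2780 library, 0 in CP70, 4 in PEA1, 3 in PEA2, 4 in PEO1 and 2 in PEO4. The sums can rest on single genes. COL1A1 was the 1 marker above that level in PEA1, at 513 to 649 reads. COL3A1 had 1495 to 2527 reads in A2780 and 0 in PEA1. The part of these markers in the differences below was not tested, and fewer cells of a type cannot be told apart from less RNA per cell in such samples.

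Per length of transcript, DNMT1 was the most abundant of the 10 genes in A2780, CP70, PEO1 and PEO4, at 65.4, 53.1, 81.6 and 76.5 CPM per kb. EZH2 came first in PEA1 and PEA2, at 45.8 and 46.3 CPM per kb, just above DNMT1 at 42.0 and 39.7. DNMT1, UHRF1 and the 3 PRC2 genes ranked above the de novo and TET enzymes in 5 of the 6 lines, and in PEA2 DNMT3B ranked above EED. DNMT3A ranged from 1.51 to 3.31 CPM per kb and TET1 from 0.394 to 5.08, and 1 of the pair ranked last in each of the 6 lines. Lengths are those of 1 annotated transcript per gene, so the order between genes depends on which transcripts the cells used.

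**Figure D1:**
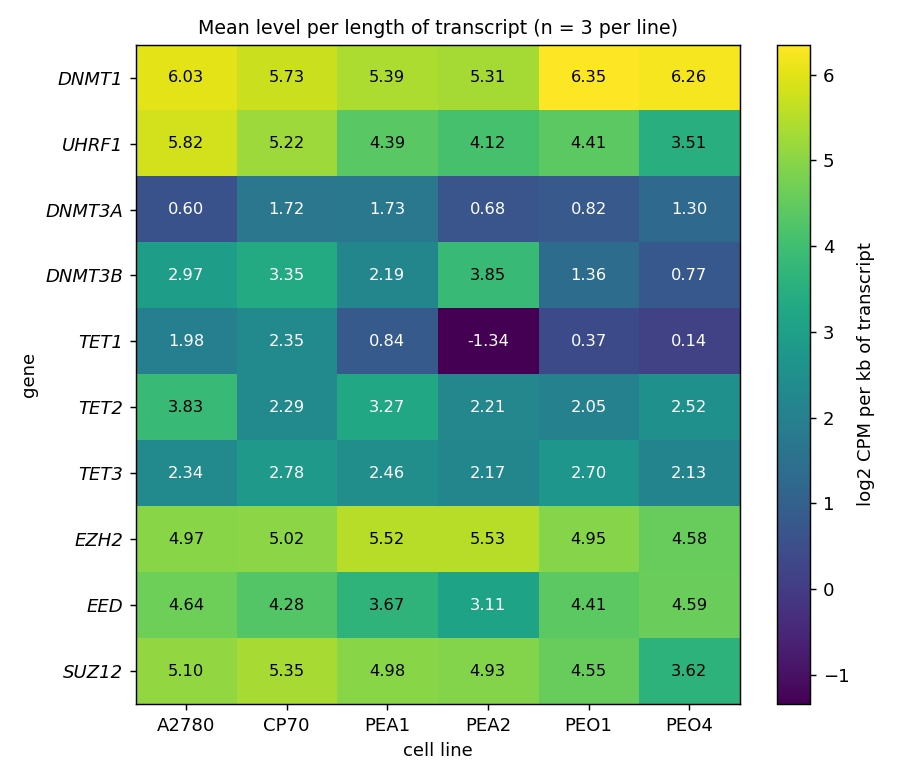
Mean log2 CPM per kb of transcript (colour and printed value) of the 10 genes (rows) in the 6 cell lines (columns), 3 libraries per line. DNMT1, UHRF1 and the PRC2 genes fill the bright rows, and TET1 in PEA2 is the lowest cell at -1.34.

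All 10 genes differed among the 6 lines (limma F test with Benjamini-Hochberg adjustment over all genes, FDR between 3.08e-11 for TET1 and 0.002 for TET3), as did 97.5% of all genes tested. TET1 spanned the widest range, 12.9-fold between the means of CP70 and PEA2, followed by DNMT3B at 8.48-fold between PEA2 and PEO4 and UHRF1 at 4.98-fold between A2780 and PEO4. TET2 spanned 3.43-fold, SUZ12 3.30-fold, EED 2.89-fold, DNMT3A 2.19-fold and DNMT1 2.05-fold. The range of EZH2 was 1.94-fold and that of TET3 1.57-fold. Set against the genes with a mean log2 CPM above 3, the range of TET1 exceeded that of 89.1%. The range of EZH2 exceeded that of 15.5% of those genes and the range of TET3 that of 4.68%.

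**Figure D2:**
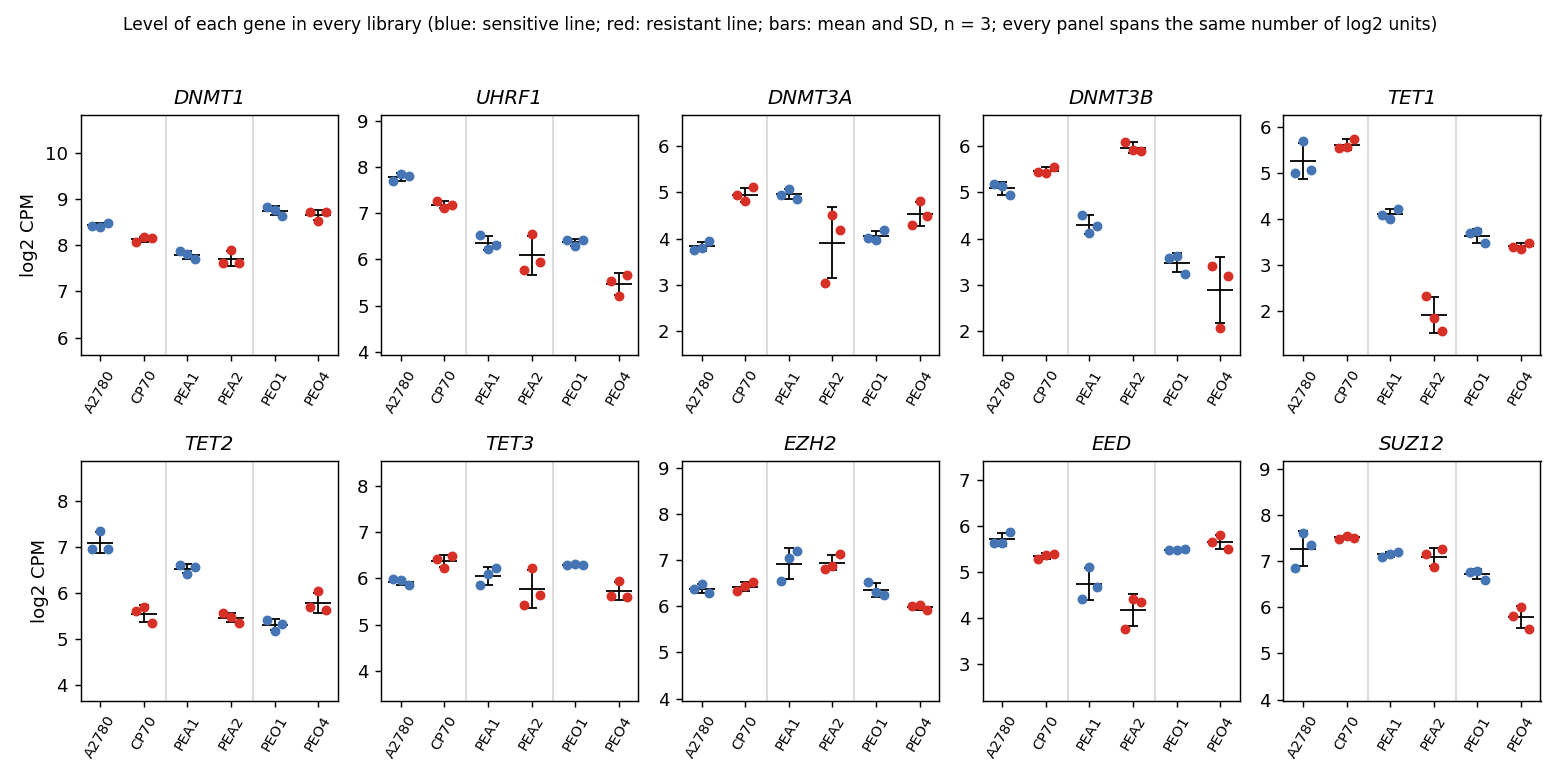
Deposited log2 CPM of each of the 10 genes in every library of the 6 lines, with sensitive lines in blue, resistant lines in red, and the mean and SD of 3 libraries as bars. TET1 lies between 1.57 and 2.34 in PEA2 against at least 3.35 in every other line, whereas EZH2 stays between 5.92 and 7.19 throughout.

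Resistant lines were then compared with their sensitive partners. A gene passed at FDR below 0.05. In the A2780 pair 5 of the 10 genes passed, against 39.9% of all genes: DNMT3A and TET3 were higher in CP70 (22.2% of all genes), and DNMT1, UHRF1 and TET2 were lower (17.7%). In the PEA pair 5 of 10 passed against 61.9% of all genes, with DNMT3B higher in PEA2 (32.5% of all genes) and DNMT3A, TET1, TET2 and EED lower (29.4%). In the PEO pair 5 of 10 passed against 41.5%, with TET2 higher in PEO4 (19.6% of all genes) and UHRF1, TET3, EZH2 and SUZ12 lower (21.9%). The libraries of the partners did not overlap for 7 of the 10 genes in the A2780 pair (54.6% of all genes), for 5 in the PEA pair (62.6%) and for 7 in the PEO pair (57.5%). Under the stricter criterion that also asks for a log2 fold change (log2FC) beyond 2 in either direction, 0 of 10 passed in the A2780 pair (9.06% of all genes), 1 in the PEA pair, TET1 (14.1%), and 0 in the PEO pair (6.22%). The median log2FC of the 10 genes was 0.14, -0.28 and -0.30 in the A2780, PEA and PEO pairs, beside -0.02, 0.01 and -0.02 over all genes. The count in the A2780 pair fell to 3 without CP70 replicate 1, where 34.5% of all genes passed, and that in the PEO pair fell to 3 without PEO4 replicate 2, where 35.8% did.

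Scaling moved the PEA pair the most. The median log2FC of all genes there moved from 0.01 as deposited to -0.10 after quantile normalization and to -0.24 with unscaled library sizes, and the number of the 10 genes that passed went from 5 to 8 under both, beside 62.9% of all genes after quantile normalization and 64.0% with unscaled sizes. The added genes were DNMT1, UHRF1 and TET3. With unscaled sizes their log2FC was -0.32, -0.51 and -0.53, against that median of -0.24.

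**Figure D3:**
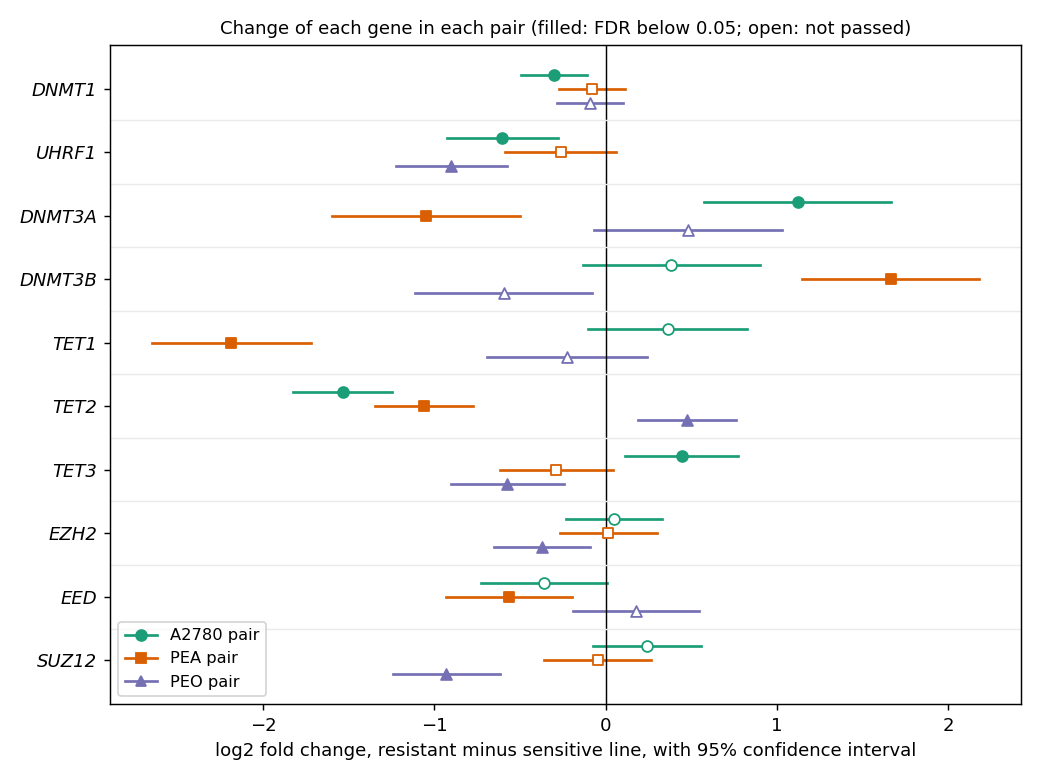
The log2 fold change of each of the 10 genes (rows) in the 3 pairs, positive where the resistant line is higher (x axis), with its 95% confidence interval as a line; filled symbols passed at FDR below 0.05. TET1 in the PEA pair lies farthest to the left at -2.19 and DNMT3B in the PEA pair farthest to the right at 1.66, and TET2 is left of 0 in the A2780 and PEA pairs and right of it in the PEO pair.

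DNMT1 and UHRF1 keep methylation through cell division. DNMT1 (chr19:10244018-10341962 in GRCh37, minus strand, a gene that overlaps S1PR2 on the same strand) measured 8.41, 8.39 and 8.48 in A2780 and 8.07, 8.17 and 8.15 in CP70. All CP70 libraries lay below all A2780 libraries. It fell by 0.30 (SE 0.09, FDR 0.0119), which is 1.23-fold lower, and the call was lost after quantile normalization (FDR 0.0621) and without CP70 replicate 1 (FDR 0.0517). The PEA1 libraries read 7.87, 7.80 and 7.70 and the PEA2 libraries 7.61, 7.90 and 7.61, and the PEO1 libraries read 8.84, 8.77 and 8.64 and the PEO4 libraries 8.71, 8.53 and 8.73. Both pairs overlapped, with a log2FC of -0.08 (95% confidence interval -0.27 to 0.11) in the PEA pair and -0.09 (-0.28 to 0.10) in the PEO pair. In order of level, PEO1 and PEO4 were highest and did not differ from each other beyond their spread, A2780 and CP70 followed in 2 distinct steps, and PEA1 and PEA2 were lowest and likewise did not differ.

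UHRF1 (chr19:4903092-4962165, plus strand) was below the sensitive partner in the mean of every resistant line. A2780 had 7.70, 7.86 and 7.80 and CP70 had 7.27, 7.11 and 7.17, a fall of 0.60 (SE 0.16, FDR 0.00394). PEO1 had 6.42, 6.28 and 6.42 and PEO4 had 5.54, 5.20 and 5.67, a fall of 0.90 (SE 0.16, FDR 9.56e-05), or 1.87-fold. Neither pair overlapped. In the PEA pair, PEA1 had 6.52, 6.22 and 6.31 and PEA2 had 5.76, 6.55 and 5.94, where PEA2 replicate 2 lay above every PEA1 library. The log2FC of -0.26 did not pass there (FDR 0.15), although it was -0.50 (FDR 0.00262) without PEA2 replicate 2. A2780 and CP70 held the highest levels, PEO1, PEA1 and PEA2 did not differ as neighbours, and PEO4 was lowest.

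The de novo methyltransferases behaved differently from each other. DNMT3A (chr2:25450724-25565459, minus strand) measured 3.76, 3.79 and 3.95 in A2780 and 4.93, 4.81 and 5.11 in CP70, a rise of 1.12 (SE 0.26, FDR 0.00175) or 2.17-fold with no overlap. In the PEA pair it went the other way, from 4.95, 5.08 and 4.86 in PEA1 to 3.05, 4.52 and 4.18 in PEA2, a fall of 1.05 (SE 0.26, FDR 0.00173). PEA2 replicate 1 was the lowest, at 15 reads, and the log2FC was -0.62 (FDR 0.00994) without it. PEO1 had 4.01, 3.96 and 4.18 and PEO4 had 4.29, 4.82 and 4.49, which did not overlap but did not pass either, with a log2FC of 0.48 (95% confidence interval -0.07 to 1.03, FDR 0.154). No neighbours in the order of the 6 levels differed beyond their spread.

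DNMT3B (chr20:31350191-31397165, plus strand) was the only one of the 10 genes that rose in the PEA pair. PEA1 had 4.52, 4.13 and 4.27 and PEA2 had 6.10, 5.91 and 5.89, corresponding to 24 to 33 reads and 128 to 209 reads. The groups lay far apart, and the rise was 1.66 (SE 0.25, FDR 8.09e-06) or 3.17-fold. In the A2780 pair the values were 5.19, 5.13 and 4.94 in A2780 and 5.44, 5.41 and 5.55 in CP70, which did not overlap and gave a log2FC of 0.38 (FDR 0.238), although it passed with the pair fitted alone (FDR 0.022). The PEO lines held the least, with 3.57, 3.63 and 3.24 in PEO1 and 3.40, 2.06 and 3.19 in PEO4, and PEO4 replicate 2 with 12 reads stood below the rest. The log2FC of -0.60 did not pass (FDR 0.0603) and was -0.18 without that library. It passed in 3 of the 6 fits that each left out 1 library of the pair, at -0.85 (FDR 0.0111) without PEO4 replicate 1, -0.75 (FDR 0.0373) without PEO4 replicate 3 and -0.72 (FDR 0.0497) without PEO1 replicate 3. PEA2, CP70 and A2780 did not differ as neighbours, although PEA2 was above A2780 (FDR 0.00328). These lines were above PEA1, which in turn was above PEO1 and PEO4.

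TET1 (chr10:70320094-70454244, plus strand), showed the largest change among the 10 genes, in the PEA pair. PEA1 had 4.09, 4.0 and 4.22, or 22 to 32 reads, and PEA2 had 2.34, 1.85 and 1.57, or 6 to 12 reads from libraries that were deeper. The fall of 2.19 (SE 0.22, FDR 5.41e-08) corresponds to a 4.55-fold lower level and stayed between -2.67 and -2.01 in log2FC under the 14 alternative settings tried for it. Elsewhere TET1 overlapped between partners. It read 4.99, 5.70 and 5.06 in A2780 and 5.53, 5.56 and 5.74 in CP70, and 3.69, 3.75 and 3.47 in PEO1 and 3.40, 3.35 and 3.48 in PEO4, with a log2FC of 0.36 (FDR 0.214) and -0.23 (FDR 0.451). CP70 and A2780 held the highest levels, PEA1, PEO1 and PEO4 did not differ as neighbours, and PEA2 was lowest by a step of 1.49. PEA1 and PEO4, which are not neighbours in that order, did differ (FDR 0.00933).

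TET2 (chr4:106067032-106200973, plus strand) was the 1 gene of the 10 that passed in all 3 pairs, as 12.7% of all genes did, but not in 1 direction. A2780 had 6.96, 7.35 and 6.95 and CP70 had 5.62, 5.70 and 5.34, a fall of 1.54 (SE 0.14, FDR 1.44e-08) or 2.90-fold. PEA1 had 6.60, 6.41 and 6.57 and PEA2 had 5.56, 5.48 and 5.36, a fall of 1.06 (SE 0.14, FDR 1.41e-06) or 2.09-fold. PEO1 had 5.42, 5.18 and 5.33 and PEO4 had 5.69, 6.04 and 5.62, a rise of 0.47 (SE 0.14, FDR 0.00871). The partners did not overlap in any pair. Without PEO4 replicate 2, the highest of its line, the rise was 0.35 and no longer passed (FDR 0.068). The sensitive lines A2780 and PEA1 held the highest levels, each distinct from the next, and the other 4 lines did not differ as neighbours. Among those 4, PEO4 was above PEA2 (FDR 0.046) as well as above PEO1.

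TET3 (chr2:74212037-74335303, plus strand) changed least across lines and also in opposite directions. It read 5.98, 5.96 and 5.85 in A2780 and 6.42, 6.23 and 6.48 in CP70, a rise of 0.44 (SE 0.16, FDR 0.0302) that did not pass without the variance trend (FDR 0.0546) or when 1 of 4 of the 6 libraries was left out, namely A2780 replicates 2 and 3 and CP70 replicates 1 and 3 (FDR 0.0532, 0.0915, 0.0833 and 0.105). PEO1 had 6.28, 6.31 and 6.28 and PEO4 had 5.61, 5.94 and 5.60, a fall of 0.57 (SE 0.16, FDR 0.00607) with no overlap. PEA1 had 5.85, 6.09 and 6.22 and PEA2 had 5.42, 6.22 and 5.65, where PEA2 replicate 2 lay level with the highest PEA1 library. The log2FC of -0.29 did not pass (FDR 0.12), and it was -0.52 (FDR 0.00266) without PEA2 replicate 2. No neighbours in the order of its levels differed.

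None of the 3 PRC2 genes passed in the A2780 pair. EZH2 (chr7:148504349-148581413, minus strand), the catalytic subunit, measured 6.38, 6.47 and 6.29 in A2780 and 6.33, 6.43 and 6.53 in CP70, and 6.54, 7.05 and 7.19 in PEA1 and 6.82, 6.88 and 7.13 in PEA2. Its libraries overlapped in both pairs, with a log2FC of 0.05 (95% confidence interval -0.23 to 0.33) and 0.02 (-0.27 to 0.30). The sign of the PEA value depended on scaling, being -0.12 after quantile normalization and -0.23 with unscaled sizes. PEO1 had 6.52, 6.31 and 6.24 and PEO4 had 6.0, 6.03 and 5.92. All PEO4 libraries lay below PEO1, and the fall of 0.37 (SE 0.13, FDR 0.0328) passed narrowly. It did not pass after quantile normalization (FDR 0.0614), with unscaled sizes (FDR 0.0594), without the variance trend (FDR 0.0605) or in 5 of 6 fits that left out 1 library, where the FDR reached 0.142 without PEO1 replicate 1. PEA2 and PEA1 held the highest EZH2 levels and did not differ, CP70, A2780 and PEO1 formed a middle group without differences between neighbours, and PEO4 was lowest.

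EED (chr11:85912254-85989855, plus strand), the subunit that binds the finished polycomb mark, passed in 1 pair. PEA1 had 4.42, 5.11 and 4.68 and PEA2 had 3.77, 4.40 and 4.35, on 25 to 73 reads per library. PEA2 lay below PEA1 without overlap by a narrow margin, and the fall of 0.56 (SE 0.18, FDR 0.0089) did not pass with the pair fitted alone (FDR 0.0992). It was -0.38 without PEA1 replicate 2 and -0.36 without PEA2 replicate 1, and passed in neither fit (FDR 0.0707 in both). A2780 had 5.63, 5.63 and 5.85 and CP70 had 5.27, 5.36 and 5.39, a log2FC of -0.36 (FDR 0.112) that passed with the pair fitted alone (FDR 0.0207) and with voom weights on recovered reads (FDR 0.0228). PEO1 had 5.47, 5.47 and 5.49 and PEO4 had 5.64, 5.80 and 5.50, a log2FC of 0.18 (FDR 0.458). Neither of these pairs overlapped. In order, A2780, PEO4, PEO1 and CP70 did not differ as neighbours and stood above PEA1, which stood above PEA2.

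SUZ12 (chr17:30264026-30328057, plus strand), a scaffold of the complex, changed in the PEO pair. PEO1 had 6.78, 6.80 and 6.59, and PEO4 had 5.82, 6.01 and 5.54. No PEO4 library came near those of PEO1, and the fall of 0.93 (SE 0.15, FDR 4.46e-05) is 1.91-fold. It read 6.86, 7.62 and 7.34 in A2780 and 7.49, 7.55 and 7.50 in CP70 (log2FC 0.24, FDR 0.22), and 7.09, 7.16 and 7.19 in PEA1 and 7.15, 6.88 and 7.27 in PEA2 (log2FC -0.05, FDR 0.797). Both pairs overlapped, and A2780 replicate 1 was the low library of its line, while without A2780 replicate 2 the log2FC was 0.41 and passed (FDR 0.0323). CP70, A2780, PEA1 and PEA2 did not differ as neighbours, although CP70 was above PEA1 (FDR 0.0348) and PEA2 (FDR 0.018). PEO1 was lower and PEO4 lowest. Reads from the partial copy SUZ12P1 could be counted here, so the level of SUZ12 is uncertain to that extent.

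The 3 pairs share no libraries, so their changes can be compared directly. The log2FC differed between pairs for 8 of the 10 genes (limma F test), against 75.3% of all genes. It did not for DNMT1 (FDR 0.211) and EZH2 (FDR 0.0924). Of the 10 genes, 0 passed in all pairs in the same direction (2.80% of all genes), and 3, namely DNMT3A, TET2 and TET3, passed in opposite directions in at least 2 pairs (27.5%). The widest gap was that of TET1, whose log2FC in the PEA pair differed by -2.55 from that in the A2780 pair (SE 0.31). The PEO pair differed by -2.26 from the PEA pair in DNMT3B (SE 0.35), the PEA pair by -2.17 from the A2780 pair in DNMT3A (SE 0.37), and the PEO pair by 2.01 from the A2780 pair in TET2 (SE 0.19).

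A model of platinum response over all pairs, with the pair as a term, called 2 of the 10 genes, against 24.1% of all genes. UHRF1 had a log2FC of -0.59 (SE 0.12, FDR 0.00209) and TET2 one of -0.71 (SE 0.22, FDR 0.0305). UHRF1 passed in 18 of 18 fits that left out 1 library, with an FDR of at most 0.00481. TET2 passed in 8 of 18, and each of the 6 fits without an A2780 or CP70 library lost it, as did those without PEA1 replicates 1 and 3 and PEA2 replicates 2 and 3, with an FDR of up to 0.057. That model treats libraries as replicates of the response. With the 3 pair differences as the replicates, limma called 0 of the 10 genes and 0 of all 12853, and 0 of the 10 had an unadjusted p below 0.05 (UHRF1 unadjusted p = 0.0691).

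The promoters of the 10 genes were read from RefSeq (GRCh38.p14), which gives 22 windows for them of 250 bases before and 50 bases after a transcript start, and all 22 were matched exactly once in GRCh37. Their median was 29 CpG dinucleotides per window against 14 over all 35116 windows, with a GC content of 73.5% against 58.7%. DNMT3B held the fewest, with 3 CpG in its 1 window, and the 3 windows of TET1 held 6 to 11. The DNMT3B window (chr20:31367408-31367707 in GRCh37) lies inside the gene, whose span starts at 31350191, so that upstream start was not read. For TET1, the windows from chr10:70359775 and 70359981 also lie inside the gene, whose span starts at 70320094. The TET1 window at that start held 10 CpG. Low counts of inner windows say nothing of CpG at the upstream start. EZH2, by contrast, held 45 and 46. Each window was searched on both strands for sequence motifs of factors that act on growth and housekeeping promoters. Of the forms of the site bound by the E2F factors, TTCCCGC was in 3 of the 22 windows (SUZ12, TET3 and UHRF1) and in 6.55% of all windows, TTGGCGC in 1 (EZH2) and in 3.04%, TTCGCGC in 2 (DNMT1 and UHRF1) and in 2.24%, and TTGCCGC in 0 and in 2.39%. The last 2 forms were added after the matches of the first 2 had been seen. The CCAAT box was found in 9 of the 22 windows and in 34.6% of all windows, and the GC box GGGCGG in 14 of 22 and in 45.0%. On one strand or the other, both can share letters with the E2F forms. CREB and NRF1 sites were found in 0 of the 22 and in 1.85% and 1.24% of all windows.

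The stretches with an E2F-like match are shown for the 5 genes that hold one. The 4 genes that fell in PEO4, TET3, SUZ12, EZH2 and UHRF1, are among them, and so is DNMT1, which did not pass there (FDR 0.455). Which genes hold a match depends on the forms searched and on the number of windows, which ran from 1 to 6 per gene. The share of all genes with a match to any of these forms was not counted, so the 5 genes have no background beside them. No relation between matches and changes was tested, and a match of letters is neither a bound site nor a cause. The stretches are given 5′ to 3′ on the strand of the gene, with the match in capitals, from TET3 (chr2:74211880-74211936 in GRCh37, plus strand), SUZ12 (chr17:30263813-30263869, plus strand), EZH2 (chr7:148581364-148581392, minus strand), UHRF1 in 2 windows (chr19:4909384-4909512 with 2 matches and chr19:4909972-4910028, plus strand) and DNMT1 (chr19:10305614-10305642, minus strand).
TET3: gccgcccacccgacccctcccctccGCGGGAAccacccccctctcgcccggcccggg
SUZ12: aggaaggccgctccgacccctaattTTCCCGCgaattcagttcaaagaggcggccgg
EZH2: ggctgccgcgtTTGGCGCtcggtccggtc
UHRF1, first window: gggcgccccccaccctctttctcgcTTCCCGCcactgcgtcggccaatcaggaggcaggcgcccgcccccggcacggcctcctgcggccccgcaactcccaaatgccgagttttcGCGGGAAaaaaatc
UHRF1, other window: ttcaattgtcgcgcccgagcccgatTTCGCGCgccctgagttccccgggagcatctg
DNMT1: catcggtttccGCGCGAAaagccggggcg
In the PEO pair, E2F1, a member of that factor family, went from 5.20 ± 0.15 (SD, n = 3) in PEO1 to 4.45 ± 0.23 in PEO4, a fall of 0.75 (FDR 0.00386), after a rise of 0.51 in CP70 (FDR 0.0427) and a log2FC of -0.31 in the PEA pair (FDR 0.175). Of the 4 genes that fell in PEO4, UHRF1 fell and TET3 rose in CP70, EZH2 and SUZ12 did not pass there, and none passed in the PEA pair. The part of E2F1 in any of these changes was not tested.

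DNMT1, UHRF1 and EZH2 are known to be made mostly in dividing cells, so 20 proliferation genes were set beside them. Among all genes 22.2% were higher and 17.7% lower in CP70, 32.5% and 29.4% in PEA2, and 19.6% and 21.9% in PEO4. In the PEO pair 1 of 20 was higher in PEO4 and 11 were lower, with a median log2FC of -0.34 and a summed level of 3899 to 4116 CPM in PEO1 and 3132 to 3608 CPM in PEO4. PCNA, the replication clamp, fell by 1.63 there, while MCM3 rose by 0.81. In the A2780 pair 5 were higher and 3 lower, the median was 0.05 and the summed level was 5617 to 5669 and 5555 to 5655 CPM, which overlap. CDK1 fell by 1.83 in CP70, and MKI67 rose by 0.62. In the PEA pair 6 were higher and 10 lower, with a median of -0.28 and a summed level of 4631 to 4723 and 4347 to 4527 CPM, and with unscaled library sizes 5 were higher and 13 lower. TYMS, a nucleotide synthesis gene, fell by 2.36 in PEA2, and CCNB1 rose by 1.13. The part of proliferation in the changes of UHRF1, EZH2 and SUZ12 was not tested.

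Other genes of DNA methylation, namely its readers, cofactors and demethylation partners, were covered by a list of which 25 were in the table. Beside them, 22.2% of all genes were higher and 17.7% lower in CP70, 32.5% and 29.4% in PEA2, and 19.6% and 21.9% in PEO4. In the PEA pair 13 of 25 were lower and 5 higher, with a median log2FC of -0.52 against 0.01 over all genes (14 lower and 3 higher with unscaled library sizes). There CXXC5, a CpG-binding protein gene, fell by 2.64 and ZBTB38, a reader of methylated DNA, rose by 1.76. In the A2780 pair 5 were higher and 6 lower with a median of -0.06 (6 and 4 with unscaled sizes). CXXC4, from the family that includes TET partners, went from 314 to 595 reads in A2780 to 23 to 40 reads in CP70, a fall of 4.52, and MBD2, a reader, fell by 1.27. In the PEO pair 4 were higher and 6 lower with a median of -0.06, and ZBTB38 there fell by 1.86. IDH2, whose product supplies the cosubstrate of the TET enzymes, rose by 1.06 in CP70 and by 1.32 in PEO4 and fell by 1.21 in PEA2.

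Among 10 other PRC2 subunits, 1 was higher and 0 lower in the A2780 pair, 4 higher and 3 lower in the PEA pair, and 2 higher and 3 lower in the PEO pair. With unscaled library sizes 1 was higher and 5 lower in the PEA pair, and after quantile normalization 4 were higher and 3 lower in the PEO pair. As deposited, 22.2% of all genes were higher and 17.7% lower in CP70, 32.5% and 29.4% in PEA2, and 19.6% and 21.9% in PEO4. RBBP7, a histone-binding subunit, rose by 1.16 in CP70 and fell by 1.04 in PEO4. JARID2, a subunit that helps to recruit the complex, rose by 0.61 in PEA2 and by 0.59 in PEO4, whereas the accessory subunit gene PHF19 fell by 1.51 in PEA2. C17orf96, now named EPOP and coding for an accessory subunit, had 1 to 4 reads in PEA1 and 36 to 57 in PEA2, and 15 to 55 reads in PEO1 and 2 to 4 in PEO4.

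Of 23 genes of polycomb repressive complex 1 (PRC1), which reads the PRC2 mark and ubiquitinates histones, 9 were higher and 2 lower in CP70, 8 higher and 7 lower in PEA2, and 5 higher and 6 lower in PEO4. With unscaled library sizes 4 were higher and 11 lower in PEA2. The all-gene shares as deposited were 22.2% higher and 17.7% lower in CP70, 32.5% and 29.4% in PEA2, and 19.6% and 21.9% in PEO4. The chromobox gene CBX7 rose by 2.75 in CP70 and by 1.69 in PEA2, from few reads in the sensitive lines. It had 6 to 9 reads in A2780 and 71 to 97 in CP70, and 2 to 6 in PEA1 and 16 to 38 in PEA2. CBX2, another chromobox gene, had 39 to 44 reads in PEA1 and 0 to 8 in PEA2. BMI1, a ring finger subunit, fell by 1.26 in PEO4 and rose by 0.40 in CP70 and by 0.34 in PEA2. Among 7 genes whose products remove polycomb marks, 0 were higher and 1 lower in CP70, 2 higher and 1 lower in PEA2 (1 and 3 with unscaled sizes), and 1 higher and 2 lower in PEO4. The demethylase gene KDM6B rose by 1.64 in PEA2.

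**Figure D4:**
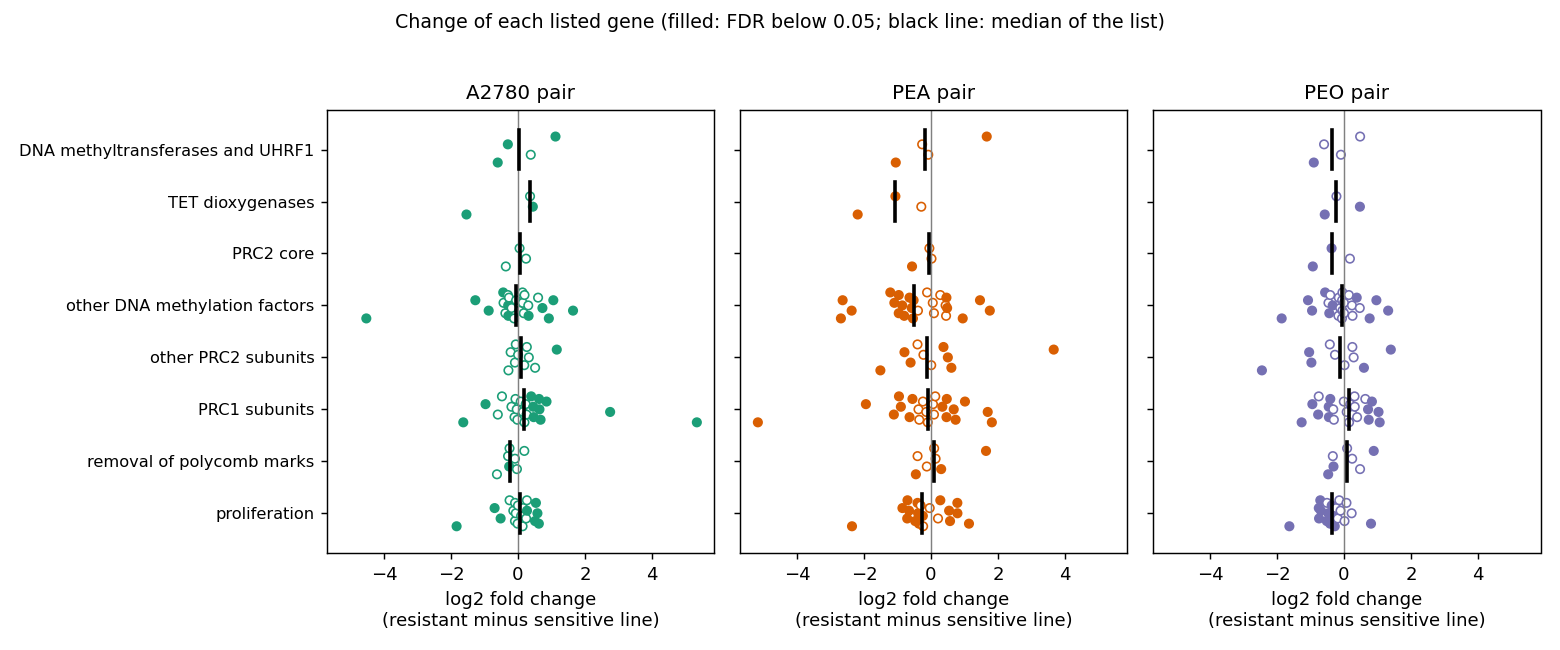
The log2 fold change between resistant and sensitive line (x axis) of each gene in 8 lists (rows) in the A2780, PEA and PEO pairs (panels); filled points passed at FDR below 0.05, and the black line is the list's median. The median of the proliferation list is -0.34 in the PEO pair and 0.05 in the A2780 pair, and that of the other DNA methylation factors is -0.52 in the PEA pair.

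Likeness of patterns was described over the 6 line means, with no test. Among the 10 genes, DNMT1 and EED rose and fell together most closely (Pearson's r 0.88, n = 6 lines), followed by DNMT3B and SUZ12 (0.83), UHRF1 and SUZ12 (0.77) and UHRF1 and TET1 (0.76). EZH2 ran opposite to DNMT1 (-0.90) and to its own partner EED (-0.89). The 6 points are 3 pairs of related lines, each pair sharing its origin. For the gene with the widest range in each group, the most similar patterns among 9941 genes with a mean above 3 were those of APRT, GLRX3 and FAM96B for DNMT3B (r from 0.99 to 1.0), FAM168B, HIST1H3B and CCNF for TET1 (0.99 each), and TMSB4X, CSNK2A1 and NACC2 for SUZ12 (0.98 to 1.0). With 6 points such values are common, since 179 genes had an r above 0.9 with DNMT3B, 270 with TET1 and 160 with SUZ12.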

How the data were processed

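RNA from 6 cell lines, 3 libraries each, was prepared with a stranded kit. The authors aligned reads to hg19, which is GRCh37, counted them per UCSC gene by featureCounts and used limma for normalization, while the processing notes of the submitters also name Bowtie2. The deposited values are log2 CPM (read counts scaled to a common library size): whole reads came back for 100% of values, after 0.5 reads were added and library sizes scaled by factors of 0.863 to 1.12. Whether strand was used in counting is not given in the sources used here.

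Here limma 3.58.1 in R 4.3.3 fitted 1 mean per line to all 18 libraries and 12853 genes with a variance trend, and p-values were adjusted by Benjamini-Hochberg over all genes. Differences between pairs and among lines were F tests in the same fit. In simulated data of 12853 genes, 82 of 100 genes with a log2FC of 1 and 99 of 100 with 2 were recovered in the A2780 pair, 82 and 97 in the PEA pair, and 81 and 98 in the PEO pair. The simulated counts had the same dispersion for every gene and few changed genes, so recovery in the real libraries may differ. Gene spans come from GENCODE annotation of GRCh37. UHRF1 was matched by symbol, since its identifier differs there. Replicate numbers were checked for pairing: same-numbered libraries did not deviate together (mean correlation 0.0425, -0.0234 and 0.0242). From each list, the genes that could be named were the 2 highest and 2 lowest that passed per pair. Genes and lists were chosen with earlier results of these data known. Alternatives changed the scaling, filter, added reads, variance model, replicate term and libraries, 1 at a time.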

Additional observations from a re-analysis of the deposited data

Results flagged for a closer look

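The change between sensitive and resistant line differed between the 3 pairs for 8 of the 10 genes by the limma F test, which compares pairs that share no libraries. By the same test it differed for 75.3% of all genes, so the count is near that share. The adjusted p was 4.93e-08 for TET2, 1.39e-06 for TET1, 4.06e-05 for DNMT3B, 9.55e-05 for DNMT3A, 0.000159 for SUZ12, 0.0012 for TET3, 0.0294 for EED and 0.0414 for UHRF1. For TET2 the log2FC was -1.54, -1.06 and 0.47 in the A2780, PEA and PEO pairs, and for SUZ12 it was 0.24, -0.05 and -0.93. The A2780 and PEA changes of UHRF1 (-0.60 and -0.26) did not differ by the pairwise contrast (FDR 0.197), nor did those of EED (FDR 0.509), and for both genes the PEO and PEA changes differed (FDR 0.018 and 0.0152).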

How the results depend on the processing

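TET1 in PEA2 and DNMT3B in PEO4 rested on 6 to 30 reads per library. Counts were also low for TET1 in PEA1 (22 to 32) and PEO4 (27 to 30) and for DNMT3B in PEA1 (24 to 33). In PEA2, DNMT3A had 15 to 79 reads and EED 25 to 73. Of 240 values of single genes under alternatives that kept all libraries, 221 kept direction and call, 11 gained the call, 6 lost it and 2 changed sign; of 180 values with 1 library left out, 156 kept both, 6 gained the call, 13 lost it and 5 changed sign. The number of the 10 genes that passed was 5 in the PEA pair and became 8 after quantile normalization and 8 with unscaled library sizes, an alternative chosen after seeing the data, as the all-gene median shifted; with a log2FC beyond 2 asked for as well, it was 1. With that criterion the A2780 pair, the PEO pair and the model over all pairs gave 0, and so did that model with the 3 pair differences as replicates. Leaving out 1 library gave 3 to 5 genes in the A2780 pair, 4 to 7 in the PEA pair, 3 to 6 in the PEO pair, 1 to 3 in the model over all pairs, 6 to 9 whose change differed between pairs, and 10 throughout among lines. In those fits 34.3% to 38.1% of all genes passed in the A2780 pair and 57.8% to 59.0% in the PEA pair. The share was 35.8% to 36.9% in the PEO pair and 19.6% to 23.8% in the model over all pairs. With all libraries kept, the change differed between pairs for 75.3% of all genes, and levels differed among lines for 97.5%. EZH2 in the PEA pair changed sign to -0.12 (quantile normalization) and -0.23 (unscaled), and ranged from -0.18 to 0.15 with 1 library left out; in the A2780 pair it ranged from -0.00093 to 0.0965, and SUZ12 in the PEA pair from -0.13 to 0.0605. The cause was not tested. With the replicate block the counts were 5, 5 and 5 in the A2780, PEA and PEO pairs, 2 in the model over all pairs and 7 for the difference between pairs. Of all genes, 39.3%, 61.6% and 41.1% passed in the pairs with that block, 19.6% in the model and 74.9% for the difference. The planned count models on recovered reads were not run, since the deposited unit is log2 CPM. Voom was run on the recovered reads and gave 7, 5 and 5 of the 10 genes in the A2780, PEA and PEO pairs. It called 45.3%, 59.5% and 48.5% of all genes in those pairs.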

Other observations

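Cancer-testis genes, many of which are held silent by DNA methylation in normal tissue, were covered by a list of 22, of which 1, PRAME, was in the table. PRAME had 638 to 1073 reads in the A2780 libraries and 129 to 196 in CP70, a fall of 3.07 (limma, SE 0.19). In the PEA pair it had 58 to 92 reads in PEA1 and 110 to 304 in PEA2, a rise of 0.66 (FDR 0.00562). PEO1 had 23 to 46 reads, or 6.93 to 9.79 CPM, and PEO4 had 0 reads in each of 3 libraries, where 3 reads correspond to 1.0 to 1.22 CPM.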
